A study of Drosophila melanogaster with 18 samples.

Results

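The 10 genes described here encode structural proteins of the Drosophila sarcomere: sls, bt, Unc-89, Zasp52, Zasp66, Zasp67, Actn, tn, Mlp84B and Mlp60A. They were taken by name, from a list of Z-disc, M-line and titin-like genes, out of 17411 genes with deposited read counts. The rule uses no measured value, but earlier results of these data were known when the genes were chosen. Of the 10, 9 passed the filter on low counts in both preparations and were tested. Zasp67 had 0 to 7 reads in each library and was not tested.

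RNA was sequenced from third-instar larvae (L3) of Drosophila melanogaster in 6 groups of 3 libraries. All groups carried the mef2 driver, which is active in muscle. In the NUAK550 and NUAK548 groups it drove overexpression of the kinase NUAK, and in the control group it drove lacZ. The labels do not say how the NUAK550 and NUAK548 lines differ, give no sex, and have no group that separates NUAK from other differences between the fly lines. Each genotype was prepared as dissected muscle carcass and as whole larvae, from flies reared at 25 °C.

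A sarcomere is bounded by Z-discs, in which α-actinin cross-links the barbed ends of actin filaments and PDZ and LIM proteins bind to it. Some titin-like proteins span from the Z-disc to the myosin filaments, and obscurin-family proteins sit at the M-line, where the myosin filaments are held together. In fly larvae these proteins build the body-wall muscles that the carcass preparation holds.

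Counted reads ran from 14577914 to 19771226 per muscle library and from 14931020 to 22341807 per whole-larva library. Levels are given as CPM (read counts relative to library size, scaled over all 18 libraries), and each difference as a log2 fold change followed by its SE. A gene is called when its adjusted p from edgeR's quasi-likelihood test is below 0.05. The labels do not say whether libraries of a group came from separate cultures, so every p measures the spread between these libraries only, which may be technical. Nuak itself stood at 5305, 4087 and 5192 CPM in NUAK550 muscle and at 3167, 3505 and 2218 CPM in NUAK548 muscle, against 456, 399 and 464 CPM in lacZ muscle. In whole larvae it was at 2123 to 2289 CPM in NUAK550 and 1087 to 1222 CPM in NUAK548, against 56.2 to 101.5 CPM in lacZ.

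Some libraries stood apart from others of their group. The summed level of 10 muscle markers (Mef2, Mhc, Mlc1, Mlc2, up, wupA, Tm1, Tm2, Act57B and Prm), all of which were detected, was 151164, 99112 and 142159 CPM in NUAK550 muscle, 29306, 95891 and 58575 CPM in NUAK548 muscle and 48705, 71267 and 47038 CPM in lacZ muscle. NUAK548 muscle library 1 was the lowest of these 9. In whole larvae the same sum was 21945 to 25941 CPM in NUAK550, 2629 to 7420 CPM in NUAK548 and 2358 to 8844 CPM in lacZ, so that NUAK550 lay above the other groups. The non-coding RNA roX1, part of male dosage compensation in flies, was at 22.9 to 26.8 CPM in NUAK550 whole larvae, at 181, 21.5 and 19.3 CPM in NUAK548 whole larvae and at 162 to 189 CPM in lacZ whole larvae. The summed level of 6 testis genes followed it, at 3.52 to 4.40, at 164, 3.91 and 3.79, and at 122 to 136 CPM in the same groups, and NUAK548 whole library 1 thus differed from the other libraries of its label. In muscle roX1 was at 61.7 to 66.9 CPM in NUAK550, 135 to 338 CPM in NUAK548 and 494 to 559 CPM in lacZ. In muscle, marker sums of fat body, larval cuticle, trachea, hemocytes, neurons, glia and testis overlapped between each NUAK group and lacZ. Single markers were still called. Of 6 hemocyte markers 2 were higher in each NUAK group, and 1 of 7 neuron and 1 of 7 tested cuticle markers were higher in NUAK550. Of 5 trachea markers 1 was lower in NUAK548. Over all tested genes 12.6% were called in NUAK550 and 5.56% in NUAK548 muscle. In whole larvae the glia sum was 489 to 865 CPM in NUAK550 against 1033 to 1419 CPM in lacZ, and the hemocyte sum 442 to 490 CPM in NUAK550 against 250.3 to 425 CPM in lacZ. Of the genes listed for flight muscle, fln, Act88F and TpnC4 had 3 to 48 reads over the 9 muscle libraries together, TpnC41C had 180 reads, and Mf had 629667 reads. Mf stood at a mean of 5191 CPM in these larval libraries, beside 4980 CPM for the muscle marker wupA. It is therefore not read as a sign of flight muscle.

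**Figure D1:**
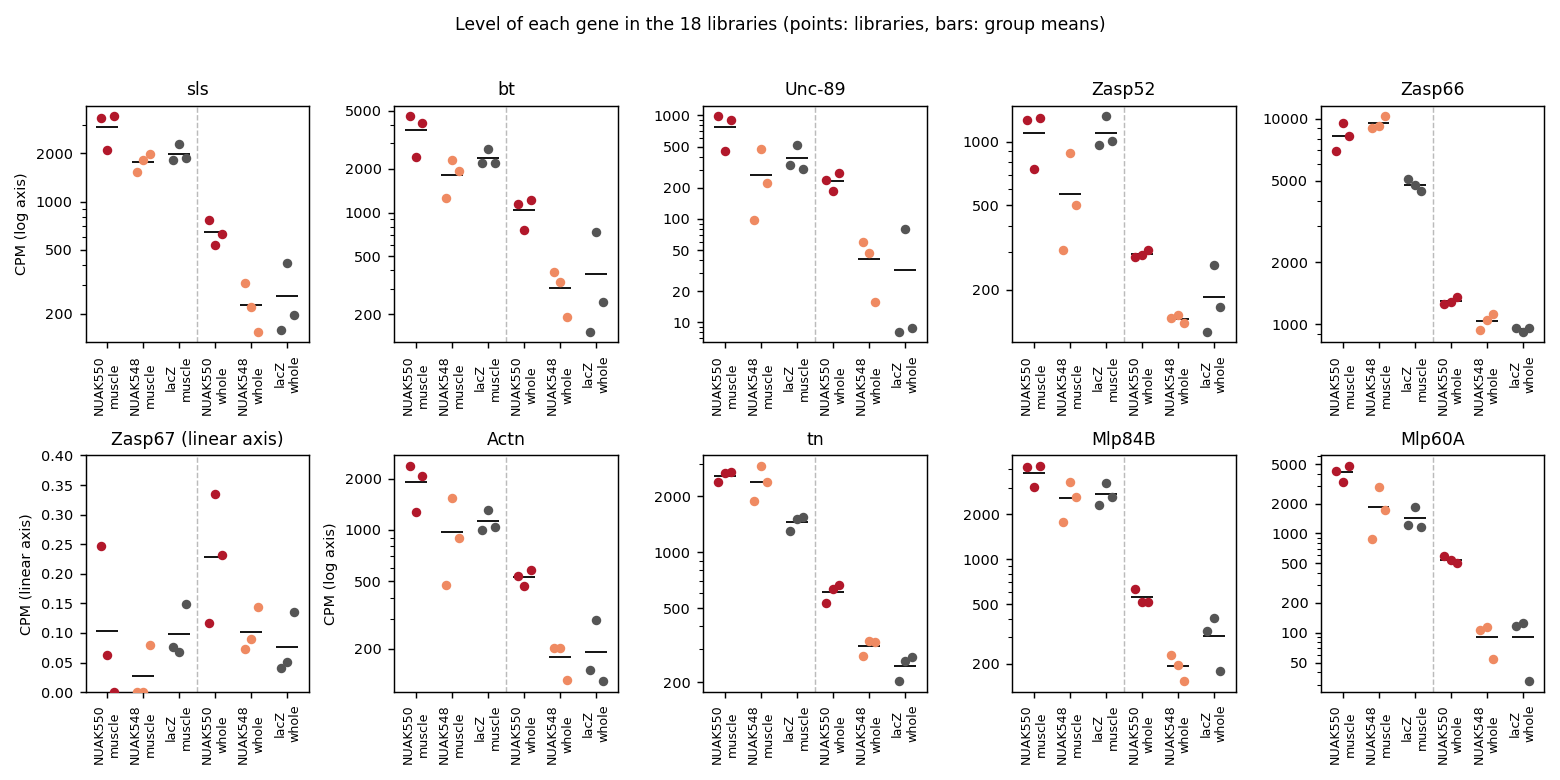
Level of each of the 10 genes in CPM in the 18 libraries, on log axes except for Zasp67, which has a linear axis, with NUAK550, NUAK548 and lacZ libraries of muscle left of the dashed line and of whole larvae right of it. Points are libraries and bars are means of 3. Zasp66 was at 6967 CPM or more in all NUAK muscle libraries and at 5084 CPM or less in lacZ muscle, while Zasp67 stayed below 0.34 CPM.

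The clearest differences between NUAK and lacZ muscle were in Zasp66 and tn. Both rose in NUAK550 and in NUAK548 muscle, each by less than 2-fold, and the ranges of their libraries did not overlap with lacZ in either group. Mlp60A rose in NUAK550 muscle. The titin-like genes, Unc-89, Actn, Zasp52 and Mlp84B did not pass the test in muscle. In NUAK550 muscle 3 of the 9 tested genes were called, all higher, where 6.45% of all 9821 tested genes were called higher and 12.6% in either direction. In NUAK548 muscle 2 of 9 were called, both higher, against 2.6% of all genes called higher and 5.56% in either direction. The median log2 fold change of the 9 genes was 0.74 in NUAK550 and −0.17 in NUAK548, beside 0.03 and 0.01 over all tested genes. Over the 10 muscle markers it was 1.04 in NUAK550 and 0.04 in NUAK548. Without NUAK548 muscle library 1 the NUAK548 median of the 9 genes was 0.10. Both comparisons use the same 3 lacZ libraries.

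The titin-like genes come first. sls, for sallimus (FBgn0086906, 3L 2039681 to 2115611, minus strand), encodes the fly titin-related protein whose short form is kettin, and its annotated exons cover 58996 bases, with 42 exons and 13 transcripts, against medians of 1722 bases, 3 exons and 2 transcripts over protein-coding genes. Its level was 3314, 2092 and 3403 CPM in NUAK550 muscle and 1524, 1813 and 1997 CPM in NUAK548 muscle, against 1817, 2278 and 1871 CPM in lacZ muscle. NUAK550 libraries 1 and 3 were above every other muscle library, while library 2 lay inside the lacZ range. The log2 fold change was 0.54 (SE 0.21) in NUAK550 and −0.17 (SE 0.21) in NUAK548, with edgeR adjusted p = 0.133 and 0.689. Without NUAK550 library 2 the NUAK550 value was 0.72 and sls was called (edgeR adjusted p = 0.0427). Without NUAK548 library 1 the NUAK550 value was 0.54 and sls was not called (edgeR adjusted p = 0.134). A stretch of 1.85% of the exonic sequence overlaps the antisense gene asRNA:CR42860. That gene rose in NUAK550 muscle (log2 3.58, SE 0.34, edgeR adjusted p = 0.00097) and in NUAK548 muscle (log2 1.52, SE 0.33, edgeR adjusted p = 0.0363), but reached only 36.5 CPM at most. As the strand setting of the counting is not given, reads of the antisense gene and sls in that stretch cannot be told apart.

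bt, for bent (FBgn0005666, 4 724400 to 776474, plus strand, 28019 exonic bases), encodes projectin, a titin-like protein kinase of the sarcomere. It was at 4570.1, 2405 and 4150.1 CPM in NUAK550 muscle and 1264, 2284 and 1927 CPM in NUAK548 muscle, against 2189.65, 2718 and 2180.4 CPM in lacZ muscle. As with sls, NUAK550 libraries 1 and 3 were the highest and library 2 lay inside the lacZ range. The log2 fold changes of 0.62 (SE 0.28) in NUAK550 and −0.38 (SE 0.28) in NUAK548 did not pass (edgeR adjusted p = 0.183 and 0.473).

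Unc-89 (FBgn0053519, Obsc in the reference annotation, 2R 23995543 to 24014254, minus strand, 13261 exonic bases) encodes fly obscurin, an M-line protein with kinase domains. It had 978, 457 and 902 CPM in NUAK550 muscle and 98.1, 472 and 221 CPM in NUAK548 muscle, against 333, 523 and 306 CPM in lacZ muscle. Its NUAK548 libraries lay below and inside the lacZ range, and NUAK550 library 2 lay inside it too. With log2 fold changes of 0.98 (SE 0.53) in NUAK550 and −0.58 (SE 0.52) in NUAK548, it was not called (edgeR adjusted p = 0.262 and 0.576). It varied most within groups among the 9 genes, with an SD of log2 CPM of 0.78 in muscle, where the median over all tested genes was 0.23.

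The Zasp genes encode PDZ-domain proteins of the Z-disc of the Alp/Enigma family. Zasp66 (FBgn0035917, 3L 8624371 to 8638813, plus strand, 2812 exonic bases, 12 transcripts) was at 6967, 9553 and 8223 CPM in NUAK550 muscle and 8951, 9253 and 10237 CPM in NUAK548 muscle, against 5084, 4733 and 4472 CPM in lacZ muscle. All 6 NUAK libraries were above all 3 lacZ libraries, and NUAK548 did not lie below NUAK550 here, unlike for sls, bt and Mlp60A. The fold change was 1.71 in NUAK550 (log2 0.78, SE 0.15, edgeR adjusted p = 0.0159) and 1.98 in NUAK548 (log2 0.99, SE 0.15, edgeR adjusted p = 0.0105). The NUAK548 call held without any single library, at an edgeR adjusted p of at most 0.0482. The NUAK550 call was lost without lacZ library 1, lacZ library 3 or NUAK550 library 3, with edgeR adjusted p = 0.0571, 0.0648 and 0.0665.

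Zasp52 (FBgn0265991, 2R 15762565 to 15817004, minus strand, 10771 exonic bases, 22 transcripts), which binds α-actinin, had 1271, 744 and 1288 CPM in NUAK550 muscle and 309, 885 and 501 CPM in NUAK548 muscle, against 968, 1315 and 1012 CPM in lacZ muscle. It was the only tested gene of the list whose NUAK548 libraries all lay below lacZ, as did those of 13.0% of all tested genes. The log2 fold change of −0.98 (SE 0.37) in NUAK548 was not called (edgeR adjusted p = 0.166), and in NUAK550 it was −0.02 (SE 0.36, edgeR adjusted p = 0.975). Without NUAK548 library 1 the NUAK548 value was −0.69 (edgeR adjusted p = 0.305). Zasp67 (FBgn0036044, 3L 9787933 to 9797687, minus strand) had 4 reads over the 3 NUAK550 muscle libraries and 1 over NUAK548, against 4 over lacZ. At these counts no difference could be seen, and no fold is given.

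Actn (FBgn0000667, X 2023822 to 2042311, minus strand, 5272 exonic bases) encodes α-actinin, the actin cross-linker of the Z-disc. It was at 2371, 1269 and 2065 CPM in NUAK550 muscle and 474, 1539 and 891 CPM in NUAK548 muscle, against 1001, 1316 and 1047 CPM in lacZ muscle. Both NUAK groups overlapped with lacZ, and NUAK548 library 1 was the lowest. The log2 fold changes of 0.74 (SE 0.39) in NUAK550 and −0.23 (SE 0.39) in NUAK548 had edgeR adjusted p = 0.256 and 0.782. Exons of other genes cover 19.4% of its exonic sequence on the opposite strand (east and CG4313) and 5.03% on the same strand (usp), where reads cannot be told apart, and these genes had at most 124 CPM in any muscle library.

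tn, for thin (FBgn0265356, 2R 18987344 to 19008944, plus strand, 6152 exonic bases), encodes the fly TRIM32, a protein of Z-disc and costamere that maintains muscle integrity. It was at 2376, 2668 and 2712 CPM in NUAK550 muscle and 1887, 2906 and 2397 CPM in NUAK548 muscle, against 1294, 1509.8 and 1554 CPM in lacZ muscle. All 6 NUAK libraries were above all lacZ libraries. The fold change was 1.76 in NUAK550 (log2 0.81, SE 0.17, edgeR adjusted p = 0.0193) and 1.64 in NUAK548 (log2 0.71, SE 0.17, edgeR adjusted p = 0.0477). The NUAK550 call was lost without lacZ library 1 (edgeR adjusted p = 0.0797), lacZ library 3 (0.0579) or NUAK550 library 3 (0.0801), and the NUAK548 call without any of 8 of the 9 libraries (0.0633 to 0.151), NUAK548 library 1 being the exception (0.027).

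Mlp84B and Mlp60A encode muscle LIM proteins, and Mlp84B is known to act together with sls. Mlp84B (FBgn0014863, 3R 7112850 to 7117732, minus strand, 3136 exonic bases) was at 4096, 3044 and 4176 CPM in NUAK550 muscle and 1763, 3274 and 2606 CPM in NUAK548 muscle, against 2305, 3202 and 2607 CPM in lacZ muscle. Both groups overlapped with lacZ, and the log2 fold changes were 0.46 (SE 0.24) in NUAK550 and −0.10 (SE 0.24) in NUAK548 (edgeR adjusted p = 0.255 and 0.851). Mlp60A (FBgn0259209, 2R 24074602 to 24078223, plus strand, 2839 exonic bases) was at 4266, 3307 and 4757 CPM in NUAK550 muscle and 887, 2926 and 1738 CPM in NUAK548 muscle, against 1213, 1866 and 1169 CPM in lacZ muscle. Its NUAK550 libraries were all above lacZ, and its NUAK548 libraries lay below, inside and above the lacZ range. It rose 2.85-fold in NUAK550 (log2 1.51, SE 0.40, edgeR adjusted p = 0.0425), and was not called in NUAK548 (log2 0.36, SE 0.39, edgeR adjusted p = 0.643). The NUAK550 call was lost without any of 7 of the 9 libraries (edgeR adjusted p from 0.0562 to 0.141), and was kept without NUAK548 library 1 or 2.

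**Figure D2:**
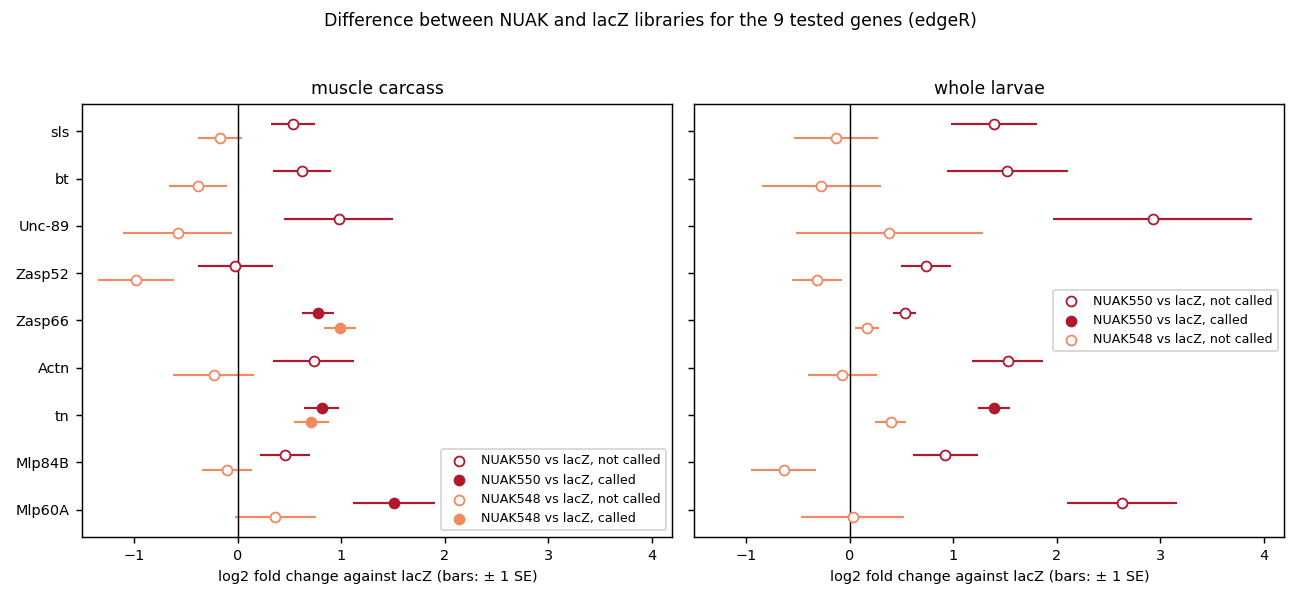
Log2 fold change against lacZ of the 9 tested genes (horizontal axis, bars are ± 1 SE) in muscle carcass (left) and whole larvae (right), for NUAK550 and NUAK548, with filled points for genes called by edgeR. In muscle the called values ran from 0.71 for tn in NUAK548 to 1.51 for Mlp60A in NUAK550. In whole larvae all 9 NUAK550 values were above 0, and tn was the one called.

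Compared by range alone, 3 of the 9 genes were higher without overlap in NUAK550 muscle than in lacZ muscle (Zasp66, tn and Mlp60A), where 19.4% of all tested genes were. In NUAK548 muscle it was 2 of 9 (Zasp66 and tn) against 14.4%. With the level of roX1 as a covariate, none of the muscle calls remained among the 9 genes. In NUAK550 the log2 values were then 0.34 (SE 0.61) for Zasp66, 0.41 (SE 0.73) for tn and 0.23 (SE 1.90) for Mlp60A, each with edgeR adjusted p = 0.999. In NUAK548 they were 0.82 (SE 0.27, edgeR adjusted p = 0.355) for Zasp66 and 0.55 (SE 0.33, edgeR adjusted p = 0.556) for tn. Over all genes 0 calls in NUAK550 and 2 in NUAK548 were left. The median of the 9 genes was then −0.51 in NUAK550 and −0.59 in NUAK548. The roX1 levels of neither NUAK group overlapped with those of lacZ muscle, so that roX1 and group cannot be told apart in either comparison.

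NUAK550 and NUAK548 muscle were also compared with each other. No gene of the 9 was called by edgeR, against 1.45% of all tested genes, although 7 of 9 had an unadjusted p below 0.05, as did 2021 of all 9821 genes, and DESeq2 called 4, against 9.13% of all genes. The log2 difference of NUAK550 against NUAK548 ran from −0.21 (SE 0.15) for Zasp66 to 1.56 (SE 0.53) for Unc-89, with a median of 0.95, beside 0.01 over all genes. sls, bt and Mlp60A were higher in all NUAK550 than in all NUAK548 libraries, as were 13.6% of all genes. For Zasp66 and tn the interval of ± 2 SE ran from −0.52 to 0.09 and from −0.24 to 0.44. Without NUAK548 library 1 the median of the 9 differences was 0.64 and again none was called.

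Within groups, the genes fell into different patterns over the muscle libraries. NUAK548 library 1 was the lowest of its group for 9 of 9 genes and library 2 the highest for 7. In NUAK550, library 2 was the lowest for 7 genes but the highest for Zasp66. In lacZ, library 2 was the highest for 7. Zasp66 and tn varied least, with SDs of log2 CPM within groups of 0.15 and 0.21 in muscle, at or below the median of 0.23 over all tested genes, and Actn, Mlp60A, Zasp52 and Unc-89 varied most, with 0.57, 0.57, 0.53 and 0.78. The share of Zasp66 in the summed CPM of the 10 genes was 23.1%, 37.4% and 26.0% in NUAK550 muscle and 52.2%, 36.5% and 45.5% in NUAK548 muscle, against 31.4%, 24.3% and 27.6% in lacZ muscle.

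**Figure D3:**
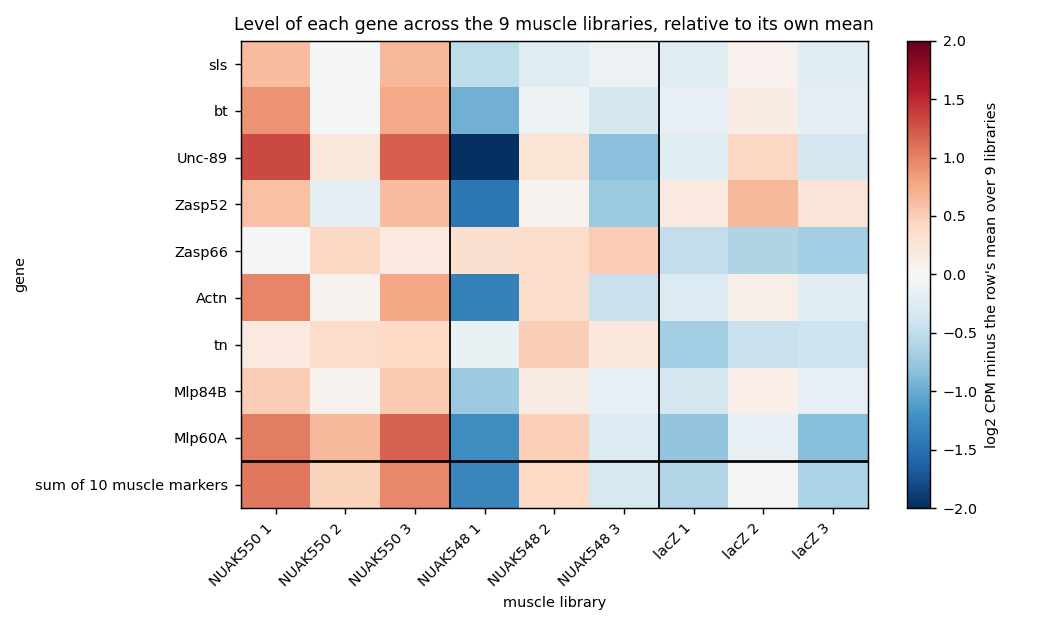
Log2 CPM of the 9 tested genes in the 9 muscle libraries, each row centred on its own mean, with NUAK550, NUAK548 and lacZ libraries from left to right and the summed muscle markers in the last row. NUAK548 library 1 is the lowest column of its group in every row of the genes, and Zasp66 and tn are the rows in which all NUAK libraries stand above all lacZ libraries.

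The summed muscle markers moved with most of these genes. Set against that sum, Mlp60A was at 28.2, 33.4 and 33.5 CPM per 1000 CPM of markers in NUAK550 muscle and 30.3, 30.5 and 29.7 in NUAK548 muscle, against 24.9, 26.2 and 24.8 in lacZ muscle, and its SD within groups on the log2 scale fell to 0.09 as a ratio. Actn was at 15.7, 12.8 and 14.5 per 1000 CPM in NUAK550 and 16.2, 16.0 and 15.2 in NUAK548, against 20.5, 18.5 and 22.3 in lacZ. Both genes thus kept a narrow ratio to the markers within each group, while Actn was lower as a ratio in every NUAK library than in lacZ and Mlp60A was higher. Zasp52, at 7.50 to 9.06 in NUAK550 and 8.56 to 10.5 in NUAK548 against 18.5 to 21.5 in lacZ, was the gene with the widest gap below lacZ. Zasp66 did not follow the markers. It was at 46.1, 96.4 and 57.8 in NUAK550 and 305, 96.5 and 175 in NUAK548, against 104, 66.4 and 95.1 in lacZ. The SD of its ratio, 0.61, was larger than that of its level. The same held for tn (0.43 against 0.21) and sls (0.44 against 0.27). As a ratio tn was at 15.7, 26.9 and 19.1 in NUAK550 and 64.4, 30.3 and 40.9 in NUAK548, against 26.6, 21.2 and 33.0 in lacZ. Both NUAK groups thus overlapped with lacZ in the ratio of tn. These ratios were not tested, and no share of all genes was taken for their ranges. The part that the markers' differences have in the calls above was not tested either. In bulk libraries, fewer muscle cells and less RNA per muscle cell cannot be told apart.

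**Figure D4:**
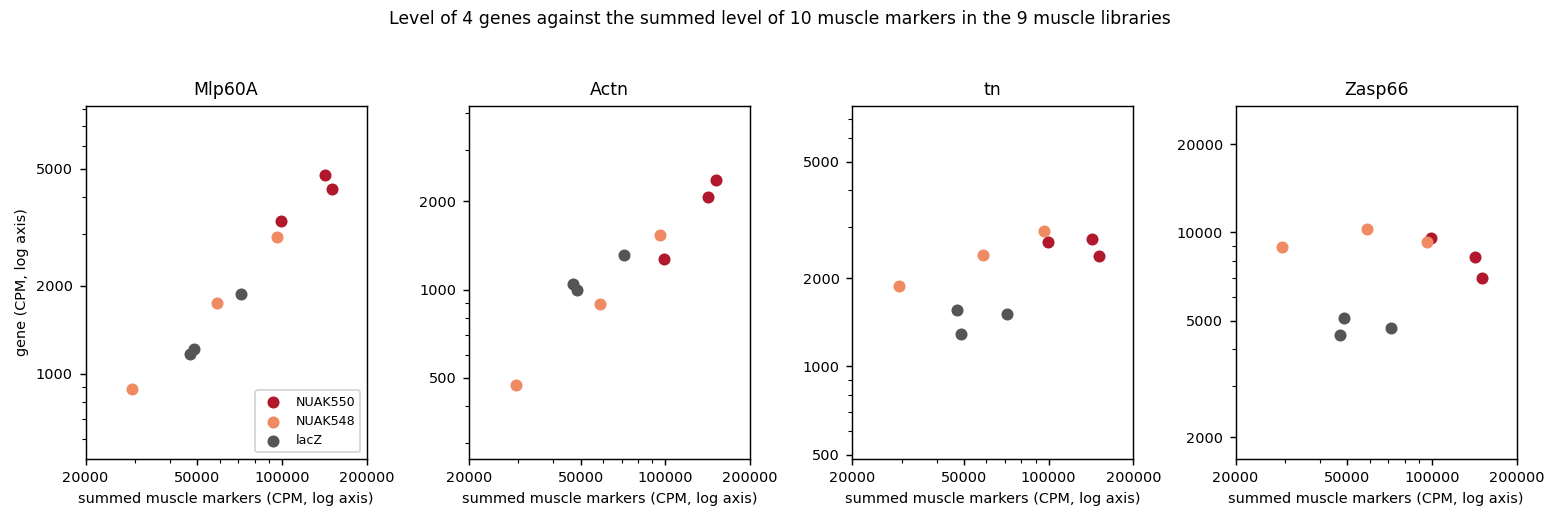
Level of Mlp60A, Actn, tn and Zasp66 in CPM (vertical log axis) against the summed level of 10 muscle markers in CPM (horizontal log axis) in the 9 muscle libraries, coloured by group. Mlp60A and Actn climb with the markers over all groups, while Zasp66 lies between 6967 and 10237 CPM in NUAK libraries and between 4472 and 5084 CPM in lacZ libraries whatever the marker level.

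In whole larvae, the tested genes lay above lacZ in NUAK550 and were not called in NUAK548. All 9 tested genes were higher in all NUAK550 whole libraries than in all lacZ whole libraries, where 14.8% of the 12255 tested genes were, but edgeR called tn alone. That is 1 of 9 genes, against 0.596% of all genes called higher and 0.808% in either direction. All 9 had an unadjusted p below 0.05, as did 4237 of all genes, and DESeq2 called all 9, against 19.7% of all genes. In NUAK548 whole larvae none was called by edgeR or DESeq2, against 0.155% of all genes by edgeR and 3.98% by DESeq2, and 1 of 9 had an unadjusted p below 0.05, as did 1292 of all genes. The median log2 fold change of the 9 genes was 1.40 in NUAK550 and −0.07 in NUAK548, beside 0.01 and −0.01 over all genes. Over the 10 muscle markers it was 1.99 in NUAK550 and −0.135 in NUAK548.

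tn was at 531, 637 and 667 CPM in NUAK550 whole larvae and 278, 333 and 330.1 CPM in NUAK548 whole larvae, against 202, 261 and 272 CPM in lacZ whole larvae. NUAK550 was 2.63-fold above lacZ (log2 1.39, SE 0.15, edgeR adjusted p = 0.0128), and NUAK548 was also above every lacZ library, as were 7.18% of all tested genes (log2 0.40, SE 0.15), without being called (edgeR adjusted p = 0.416). The NUAK550 call was lost without lacZ library 3, NUAK550 library 2 or NUAK550 library 3 (edgeR adjusted p = 0.0591, 0.0733 and 0.0615), and with roX1 as a covariate (log2 1.16, SE 0.25, edgeR adjusted p = 0.335). The roX1 levels of NUAK550 and lacZ whole larvae did not overlap. Within groups roX1 differed widely only in NUAK548 (181, 21.5 and 19.3 CPM). The separation of roX1 from group in this fit thus rests on NUAK548 whole library 1.

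Zasp66 was at 1262, 1288 and 1364 CPM in NUAK550 whole larvae and 939.9, 1053 and 1123 CPM in NUAK548 whole larvae, against 962, 923 and 957 CPM in lacZ whole larvae. Its libraries within a group were close together, with an SD of 0.08 on the log2 scale that was smaller than for all but 2.3% of tested genes, and its difference in NUAK550 was the smallest of the 9 (log2 0.53, SE 0.11, edgeR adjusted p = 0.0727). Zasp52 was at 286, 290.5 and 308 CPM in NUAK550 and 147, 152 and 139 CPM in NUAK548, against 127, 263 and 166 CPM in lacZ (log2 0.74, SE 0.24, edgeR adjusted p = 0.0958 in NUAK550). Zasp67 had 15 reads over NUAK550 and 7 over NUAK548, against 5 over lacZ.

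Unc-89 and Mlp60A had the widest differences in whole larvae, and also lacZ libraries that disagreed with each other. Unc-89 was at 237, 188 and 279 CPM in NUAK550 and 59.9, 47.1 and 15.7 CPM in NUAK548, against 8.13, 79.3 and 8.85 CPM in lacZ. lacZ library 2 was far above the other lacZ libraries, and the log2 fold change in NUAK550 was 2.93 (SE 0.96, edgeR adjusted p = 0.0958). Without that library it was 4.87 (edgeR adjusted p = 0.0465). Mlp60A was at 595, 536 and 499 CPM in NUAK550 and 106, 113 and 54.2 CPM in NUAK548, against 116, 125 and 32.3 CPM in lacZ (log2 2.63, SE 0.53, edgeR adjusted p = 0.0678 in NUAK550).

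The other 4 genes were also highest in NUAK550. sls was at 767, 537 and 628 CPM in NUAK550 and 309.8, 219 and 154 CPM in NUAK548, against 158, 414 and 196 CPM in lacZ (log2 1.40, SE 0.41, edgeR adjusted p = 0.0952 in NUAK550). bt was at 1136, 754 and 1217 CPM in NUAK550 and 391, 332 and 190.3 CPM in NUAK548, against 152, 735 and 243 CPM in lacZ (log2 1.52, SE 0.59, edgeR adjusted p = 0.114 in NUAK550). For both, library 2 was the highest of the lacZ libraries, and for bt it came close to the lowest NUAK550 library. Without that library the value of bt was 2.48 (edgeR adjusted p = 0.0722). Actn was at 536, 467 and 578 CPM in NUAK550 and 201, 201 and 131 CPM in NUAK548, against 151, 294 and 128 CPM in lacZ (log2 1.53, SE 0.34, edgeR adjusted p = 0.0827 in NUAK550). Mlp84B was at 626, 518 and 517 CPM in NUAK550 and 228, 195 and 152 CPM in NUAK548, against 332, 405 and 177 CPM in lacZ (log2 0.93, SE 0.31, edgeR adjusted p = 0.0966 in NUAK550). Mlp84B was the gene with the lowest value in NUAK548, where its log2 fold change of −0.64 (SE 0.31) was not called (edgeR adjusted p = 0.528).

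The summed muscle markers were also higher in NUAK550 whole larvae than in lacZ without overlap, and roX1 and the testis genes lower without overlap. Their part in these differences was not tested, and the roX1 fit separates roX1 from group here only through NUAK548 whole library 1. The count of calls turned on single libraries. NUAK548 whole library 1 also enters the shared estimate of the spread. Without it 5 of 9 genes were called higher in NUAK550 (sls, Zasp66, Actn, tn and Mlp60A). Calls over all genes then went to 3098, of which 731 were higher, against 99 and 73 with that library kept. In NUAK548 none of the 9 was called with or without it, and 2271 genes were called without it against 19 with it. Without lacZ whole library 2, 4 genes were called in NUAK550 (Unc-89, Zasp52, Actn and tn), and without lacZ library 3 or NUAK550 library 2 or 3 none was. Over the fits without 1 library, calls among all tested genes in NUAK550 whole larvae ran from 12 to 3098. The number for the fit without lacZ library 2 is not given here, so its 4 calls have no share of all genes beside them. Genes with exons over 8 kb, a class that holds sls, bt, Unc-89 and Zasp52, had a median log2 fold change of 0.25 in NUAK550 whole larvae and 0.27 in NUAK548 whole larvae, against −0.23 and −0.29 for genes under 1 kb, and with a length offset 1 of the 9 genes, tn, was again called in NUAK550.

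Against each other, NUAK550 and NUAK548 whole larvae did not overlap in any of the 9 genes, all higher in NUAK550, where 13.3% of all tested genes were. edgeR called none of them (0.139% of all genes), 9 of 9 had an unadjusted p below 0.05, as did 2625 of all genes, and DESeq2 called 9, against 8.26% of all genes. The log2 differences ran from 0.36 (SE 0.11) for Zasp66 to 2.60 (SE 0.53) for Mlp60A, and the median was 1.56, beside −0.06 over all genes. Without NUAK548 library 1 the median was 1.73 and none was called. Without lacZ library 3, which belongs to neither group but enters the shared estimate of the spread, Mlp84B and Mlp60A were called (edgeR adjusted p = 0.0402 and 0.0297). Over the fits without 1 library, 1 to 48 of all tested genes were called in this comparison.

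Whether a NUAK effect differed between the preparations was tested in a model of all 18 libraries. The NUAK548 effect on Zasp66 was larger in muscle than in whole larvae by 0.86 on the log2 scale (SE 0.18, edgeR adjusted p = 0.0339). It was the 1 call among the 9 genes, against 0.909% of all 12429 tested genes. This call was lost when any of 16 of the 18 libraries was left out (edgeR adjusted p from 0.0536 to 0.169, with differences from 0.71 to 0.91 on the log2 scale), and was kept without NUAK550 muscle library 1 or 2. For the NUAK550 effect none of the 9 genes was called by edgeR, against 1.82% of all genes, and none had an unadjusted p below 0.05, as 2833 of all genes did. The NUAK550 effect, muscle minus whole, ran from −1.86 (SE 1.10) for Unc-89 to 0.33 (SE 0.18) for Zasp66, with 8 of 9 values below 0. Without lacZ whole library 2 the value of Unc-89 was −3.91 and was called (edgeR adjusted p = 0.0346). The difference for tn was −0.49 (SE 0.24, edgeR adjusted p = 0.232), so a difference between preparations in its rise was not shown.

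Within the lacZ larvae, the 9 genes were all higher in muscle carcass than in whole larvae. All 9 were called higher by edgeR, against 22.4% of all genes called higher and 59.5% called in either direction. The log2 difference ran from 2.33 (SE 0.13) for Zasp66 to 3.96 (SE 0.52) for Mlp60A, with a median of 2.65, beside −0.20 over all genes, and each gene was higher in all muscle than in all whole-larva libraries, as were 24.8% of all tested genes. All 10 muscle markers were higher in lacZ muscle too (median 3.32), 5 of 7 fat body markers, all 7 neuron markers and all 6 testis markers were lower, and 4 of 8 cuticle markers were higher. Of 6 hemocyte markers 4 were higher and 1 lower (median 1.39), and of 5 trachea markers 3 were higher and 1 lower (median 0.76). Of 5 glia markers 4 were lower. The muscle libraries thus matched their label, with much cuticle RNA beside that of muscle (54187 to 118505 CPM over the cuticle markers). Scaling by total counts alone moved the median of all genes to −0.70 and that of the 9 genes to 2.17.

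Per kb of exon, Zasp66 was the highest of the list in every group. In lacZ muscle it was at 1694 ± 109 CPM per kb (SD, n = 3), followed by Mlp84B at 862 ± 146, Mlp60A at 499 ± 138, tn at 236 ± 22.6, Actn at 213 ± 32.4, Zasp52 at 102 ± 17.6, bt at 84.3 ± 11.0, sls at 33.7 ± 4.27 and Unc-89 at 29.2 ± 8.94 CPM per kb. The ranges of tn and Actn, of Zasp52 and bt, and of sls and Unc-89 overlapped, and other neighbours stood apart. Zasp67 was at 0.0302 ± 0.0137 CPM per kb. In NUAK550 muscle Mlp60A stood second, at 1448 ± 260 CPM per kb, above Mlp84B at 1203 ± 201 with overlapping ranges. In NUAK548 muscle Zasp66 was at 3371 ± 239 CPM per kb and Mlp84B and Mlp60A, at 812 ± 242 and 652 ± 361, overlapped. The order in lacZ whole larvae was the same but for Mlp60A, which at 32.2 ± 18.1 CPM per kb overlapped with tn (39.8 ± 6.13) and Actn (36.2 ± 17.1). Exon length is that of all annotated exons together.

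**Figure D5:**
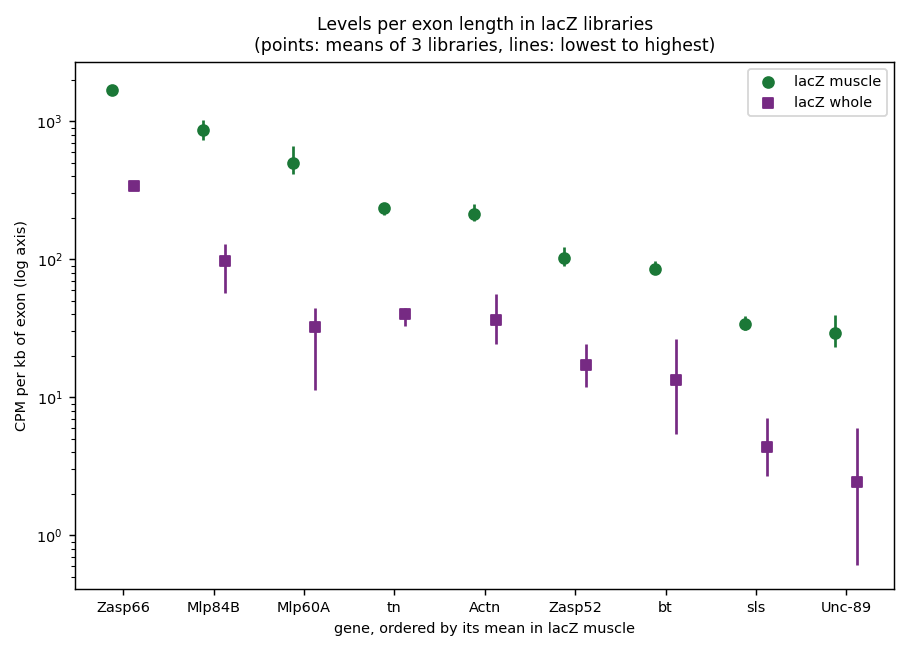
Level per kb of exon (log axis) of the 9 tested genes in lacZ muscle and lacZ whole larvae, with points for means of 3 libraries and lines from the lowest to the highest library. Zasp66 is highest in both preparations, at 1694 CPM per kb in muscle and 337 CPM per kb in whole larvae, and sls and Unc-89 are lowest.

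The genes whose pattern over the 9 muscle libraries was closest to the mean pattern of the 9 genes were wupA, ATPsynCF6, Pax, Prm and CG34396, with root mean square differences of 0.09, 0.13, 0.13, 0.14 and 0.14 on the centred log2 scale. Of these, wupA (troponin I) and Prm (paramyosin) are also among the 10 muscle markers, and Pax encodes the adhesion protein paxillin. Among the members themselves Mlp84B was the closest to the mean pattern (0.13) and Zasp66 the farthest (0.62). wupA was at 7439.7, 5641 and 7451 CPM in NUAK550 muscle and 2246, 5328 and 4183 CPM in NUAK548 muscle, against 3994, 5031 and 3503 CPM in lacZ muscle.

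Partners of these proteins were taken from 3 further lists, whose counts stand beside 6.45% of all tested genes called higher and 12.6% called in either direction in NUAK550 muscle, and 2.6% and 5.56% in NUAK548 muscle. Of 21 Z-disc, I-band and costamere partners, 2 rose and 1 fell in NUAK550 muscle and 1 fell in NUAK548 muscle, with medians of 0.25 and −0.07. Those named by the rule were if, the αPS2 integrin of muscle attachment sites and costameres, which rose in NUAK550 muscle (log2 1.24, SE 0.26, edgeR adjusted p = 0.0202), Ilk, integrin-linked kinase, which rose (log2 0.53, SE 0.11, edgeR adjusted p = 0.0221), and cpb, the β subunit of the actin capping protein, which fell (log2 −0.41, SE 0.10, edgeR adjusted p = 0.0363). None of the 3 was called in NUAK548 muscle, where their log2 values were 0.24, 0.19 and −0.07. In NUAK550 whole larvae 2 partners rose, against 0.596% of all genes, among them if (log2 1.31, SE 0.17, edgeR adjusted p = 0.0264). Of 7 tested thick filament genes, 1 fell in each NUAK group in muscle and none rose, with medians of 0.74 in NUAK550 and −0.36 in NUAK548. The gene that fell was Strn-Mlck, which encodes a kinase of myosin light chains, by a log2 value of −0.88 (SE 0.23, edgeR adjusted p = 0.0426) in NUAK550 and −1.42 (SE 0.24, edgeR adjusted p = 0.0131) in NUAK548. Paramyosin (Prm) and the myosin light chain gene Mlc1 had log2 values of 0.99 and 1.09 in NUAK550 without being called (edgeR adjusted p = 0.0651 and 0.184).

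Of 20 tested thin filament genes, 5 rose and 1 fell in NUAK550 muscle (median 0.50), beside 6.45% of all genes called higher and 12.6% in either direction. In NUAK548 muscle 2 rose and 1 fell (median 0.22), beside 2.6% and 5.56% of all genes. Act87E, a muscle actin gene, rose 7.72-fold in NUAK550 (edgeR adjusted p = 0.00116) and 5.66-fold in NUAK548 (edgeR adjusted p = 0.00381). TpnC73F, a troponin C gene, also rose in both (log2 0.82, SE 0.13, edgeR adjusted p = 0.00765 in NUAK550, and 0.67, SE 0.13, edgeR adjusted p = 0.0245 in NUAK548), and flr, an actin disassembly factor, fell (log2 −0.86, SE 0.15, edgeR adjusted p = 0.00967 in NUAK550, and −1.16, SE 0.15, edgeR adjusted p = 0.00546 in NUAK548).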

How the data were processed

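The deposited files hold raw counts of reads per gene, 1 file per library. Per the submitters' processing notes, the authors used Trimmomatic 0.36, STAR 2.5.2b, featureCounts of Subread 1.5.2, DESeq2 and the BDGP6 genome. For the strand setting, annotation release and read layout, no value is given in the labels or notes used here. Normalized tables of the authors were left out.

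Symbols were looked up in an Ensembl gene annotation of BDGP6, which gave 98.4% of the shared identifiers an identical span. Of 17411 genes, 17137 were named by identifier and 223 by position. Coordinates are those of the deposited files. Library numbers follow the labels, and the headers of the NUAK550 whole-larva count files carry other numbers. Unc-89 was matched through its synonym.

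Counts were tested with edgeR 4.0.16 in R 4.3.3 (filterByExpr, TMM, quasi-likelihood F test, two-sided, Benjamini-Hochberg over all tested genes), in 1 model of 9 libraries per preparation (6 residual degrees of freedom) and 1 of 18 libraries (12). Printed CPM use TMM factors over 18 libraries, and fold changes those of their own model. The SE was derived from the fold change and its F statistic. The models were tested on simulated data. Alternatives were DESeq2 1.42.0, other scalings, no filter, roX1 as a covariate, a length offset, a replicate block and leaving out each library. The labels do not say that replicate numbers mark a shared origin. Deviations of same-numbered libraries from their group means correlated at 0.17 to 0.35 for NUAK548 and lacZ whole larvae, every pair above 0.1, and these were taken as paired. In each other pair of groups at least 1 correlation was below 0.1.

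The genes and lists were chosen with earlier results of these data known. Named partners are, per list, the 3 of lowest p in NUAK550 against lacZ muscle, and the genes of like pattern are the 5 with the smallest root mean square difference. Counts limit precision for Zasp67 alone, since the other members had 197 or more reads in every library. The lowest chi-square per degree of freedom between libraries of a group was 40.0, so none was a copy of another.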

Additional observations from a re-analysis of the deposited data

Results flagged for a closer look

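Zasp66 had a NUAK548 effect that differed between the preparations: the effect in muscle was larger than that in whole larvae by 0.86 on the log2 scale (edgeR adjusted p = 0.0339). That call was lost when any of 16 of the 18 libraries was left out. The same kind of test was run on 21 Z-disc, I-band and costamere partners, 7 thick filament genes and 20 thin filament genes. Of these partner genes 3 differed, where 0.909% of all tested genes were called for NUAK548 and 1.82% for NUAK550. The effect on Strn-Mlck was lower in muscle than in whole larvae, with a log2 difference of −1.46 for NUAK548 (edgeR adjusted p = 0.0298) and −1.28 for NUAK550 (edgeR adjusted p = 0.0445). The effect on flr was lower in muscle too, with a log2 difference of −1.12 for NUAK548 (edgeR adjusted p = 0.0147) and −1.21 for NUAK550 (edgeR adjusted p = 0.00909). The NUAK548 effect on TpnC73F was larger in muscle by 0.86 (edgeR adjusted p = 0.0382). The rise of Nuak itself in NUAK550 was smaller in muscle than in whole larvae, with a log2 difference of −1.26 (edgeR adjusted p = 0.0445). How far the calls of the partner genes and Nuak depend on single libraries is not given here.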

How the results depend on the processing

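The scaling by DESeq2 size factors kept the number of called genes among the 9 in every comparison, and all 9 stayed higher in lacZ muscle than in lacZ whole larvae under every setting run. In NUAK548 muscle the count of 2 became 1 without the filter, with the length offset and with the replicate block, and 0 with roX1 as a covariate. In NUAK550 muscle the count of 3 became 1 with the block and 0 with roX1. In NUAK550 whole larvae the count of 1 became 9 by DESeq2's test, 2 with the block and 0 with roX1. NUAK550 against NUAK548 changed from 0 calls to 4 in muscle and 9 in whole larvae by DESeq2's test, and to 1 in whole larvae with the length offset. The 1 difference between preparations in the NUAK548 effect became 0 by total counts, without the filter, with the length offset and with the block. Leaving out 1 library at a time gave 1 to 2 calls in NUAK548 muscle, 0 to 3 in NUAK550 muscle, 0 to 5 in NUAK550 whole larvae, 0 to 2 for NUAK550 against NUAK548 in whole larvae, 0 to 1 for each difference between preparations, and 0 in every case for NUAK548 whole larvae and for NUAK550 against NUAK548 muscle. NUAK548 and lacZ whole libraries of the same number were taken as paired from their correlations alone. For NUAK548 against lacZ whole larvae the replicate block changed no call among the 9 genes. With the block 13 genes were called in all (19 without it). In the other comparisons the libraries were taken to share only a number. With roX1 the median of the 9 genes was −0.51 in NUAK550 muscle and −0.59 in NUAK548 muscle. In whole larvae it was then 1.735 in NUAK550 (1.396 without roX1) and 0.075 in NUAK548 (−0.07 without roX1). By total counts cpb turned from 0.33 to −0.17 in lacZ muscle against lacZ whole larvae, and the median of all genes moved to −0.12 in NUAK550 muscle. Calls over all genes by DESeq2's test were 1880 in NUAK550 muscle (1233 by edgeR), 1132 in NUAK548 muscle (546), 897 between them (142), 2419 in NUAK550 whole larvae (99), 488 in NUAK548 whole larvae (19) and 1012 between those (17), and 1164 (226) and 431 (113) for the NUAK550 and NUAK548 differences between preparations. With the block, 572 genes in NUAK550 muscle, 222 in NUAK548 muscle and 26 between them were called. With the block there were also 10 calls for NUAK550 against NUAK548 whole larvae, 108 and 70 for the NUAK550 and NUAK548 differences between preparations, and 4334 for lacZ muscle against lacZ whole larvae (7401 without it). The length offset gave 317 calls in NUAK550 whole larvae, 55 in NUAK548 whole larvae and 39 between them, and 985 and 188 for the NUAK550 and NUAK548 differences between preparations. With roX1 there were 0 calls between NUAK550 and NUAK548 muscle, 3 in NUAK550 whole larvae, 5 in NUAK548 whole larvae and 1670 for the NUAK550 difference between preparations. Total counts gave 32 calls in NUAK548 whole larvae, and no filter 139 for the NUAK550 difference between preparations. By total counts the split of all calls into higher and lower was 381 and 855 in NUAK550 muscle (633 and 600 with TMM), 64 and 41 in NUAK550 whole larvae (73 and 26), 19 and 13 in NUAK548 whole larvae (7 and 12), 87 and 79 for NUAK550 against NUAK548 muscle (92 and 50), 73 and 194 for the NUAK550 difference between preparations (124 and 102, and 100 and 188 by DESeq2 size factors), 38 and 79 for the NUAK548 one (64 and 49), and 1308 and 7083 for lacZ muscle against lacZ whole larvae (2789 and 4612). Without 1 library the calls over all genes ran from 403 to 1297 in NUAK550 muscle, 174 to 529 in NUAK548 muscle, 12 to 3098 in NUAK550 whole larvae and 4 to 2271 in NUAK548 whole larvae. The cause of these changes was not tested.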
